A study of Mus musculus with 50 samples.

Results

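The 9 core genes of the Hedgehog pathway were followed across mouse embryonic stem cell (ESC) lines that differ in Polycomb repressive complex 2 (PRC2), the enzyme complex that methylates lysine 27 of histone H3 (H3K27). They were chosen by name as the ligands *Shh*, *Ihh* and *Dhh*, the receptor *Ptch1*, the signal transducer *Smo*, the ligand-binding antagonist *Hhip* and the transcription factors *Gli1*, *Gli2* and *Gli3*, and are 9 of the 18055 genes of the RNA-seq table. Of these, 7 had a mean normalized count of at least 5 over the 8 libraries and were tested, whereas *Shh* and *Ihh* were under that limit.

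The study asked how EZH1 and EZH2, the alternative catalytic subunits of PRC2, contribute to H3K27 methylation and to the recruitment of the complex. All lines derived from E14 ESCs, grown with serum, LIF and the 2i inhibitors, and the mutants were made by CRISPR/Cas9 editing. WT cells were unedited, *Ezh2* KO cells carried a deletion in *Ezh2* and *Ezh1/2* dKO cells lacked both genes. *Ezh2* Y726D and *Ezh2* R685C cells carried 1 amino acid change in EZH2, introduced into *Ezh1* KO cells, so that they also lacked *Ezh1*. The SUZ12 and H3K27me3 libraries whose labels name Y726D without *Ezh1* were taken as the same line. RNA-seq covered WT, *Ezh2* KO, *Ezh2* Y726D and *Ezh1/2* dKO cells with 2 libraries each. Every ChIP-seq or ATAC-seq target had 1 library per line, and no test was made there. The labels name no separate clones of a line, so clone and genotype cannot be told apart, in RNA-seq as well. A further list came from *Ezh1/2* dKO cells transfected with HA-tagged EZH1, with untransfected cells as the control.

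In the absence of a Hedgehog ligand the receptor PTCH1 keeps the membrane protein SMO inactive, and GLI proteins are processed to repressors or held back. Ligand binding to PTCH1 releases SMO, and full-length GLI proteins then activate targets, among which *Gli1*, *Ptch1* and *Hhip* are the standard readouts. The pathway patterns the neural tube, the limb and the gut of the embryo.

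In mm9 the ligand genes lie at chr5:28783355-28793641 (*Shh*), chr1:74991891-74998246 (*Ihh*) and chr15:98723462-98728971 (*Dhh*). *Ptch1* lies at chr13:63610261-63674474, *Smo* at chr6:29685694-29711365 and *Hhip* at chr8:82490014-82581905. The GLI genes lie at chr10:126766945-126778645 (*Gli1*), chr1:120730709-120950196 (*Gli2*) and chr13:15555068-15821859 (*Gli3*). *Smo* and *Gli3* are on the plus strand and the other 7 genes on the minus strand.

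The RNA-seq libraries held between 3604123 and 5181553 reads assigned to genes. *Ezh2* had 1 or 2 reads in each *Ezh2* KO and *Ezh1/2* dKO library, against normalized counts of 598 and 546 in WT and 422 and 613 in *Ezh2* Y726D. *Ezh1* stood at 14 to 24.1 in the 4 libraries of *Ezh1/2* dKO and *Ezh2* Y726D, against 227 and 377 in WT. None of 10 ESC markers was called in any comparison by limma, and their summed level lay between 13993 and 17397 in all libraries. Of 5 tested trophectoderm markers 3 were called higher against WT in *Ezh2* Y726D as well as in *Ezh1/2* dKO, and their list summed to 336 to 451 in WT and 499.8 to 599 in *Ezh2* KO, against 665 to 1222 in *Ezh2* Y726D and 800.4 to 1010 in *Ezh1/2* dKO. Of 5 tested primitive endoderm markers 2 were called higher against WT in *Ezh1/2* dKO, as was the 1 fibroblast marker tested, there and in *Ezh2* Y726D, and no neural or primitive streak marker was called against WT. The part of such cells in the values below was not tested, and in bulk RNA fewer cells of a type and less RNA per cell cannot be told apart.

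In WT cells PRC2 lay at the ligand and receptor genes and not at *Gli1*, *Gli2* or *Hhip*. SUZ12, a core subunit used to map the complex, had a peak within 5 kb of an annotated transcription start site (TSS) in 6 of the 9 genes, *Shh*, *Ihh*, *Dhh*, *Ptch1*, *Smo* and *Gli3*, beside 14.4% of all protein-coding genes. H3K27me3, the trimethyl mark of repressed chromatin, lay at 5 of the 9, the same set without *Gli3*, beside 18.8% of all genes. The windows of the ligands were mostly covered. H3K27me3 peaks took 67.8% of the bases within 5 kb of a TSS for *Shh*, 73.8% for *Ihh* and 60.7% for *Dhh*, against 9.50% for *Ptch1* and 21.2% for *Smo*.

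CG content, which is high at most Polycomb-bound promoters, ranged widely over the 200 bases upstream of the annotated gene starts. This stretch is shown for *Shh* and *Ihh*, the SUZ12-bound genes with the fewest and with many CG dinucleotides in it. It is also shown for *Hhip*, which had no SUZ12 peak and as many CG dinucleotides there as any. The stretches were read from mm9 on the minus strand, with CG in capitals, at chr5:28793642-28793841, chr1:74998247-74998446 and chr8:82581906-82582105. Each lies outside the annotated exons of its own gene, and exons of other genes were not checked.
Shh: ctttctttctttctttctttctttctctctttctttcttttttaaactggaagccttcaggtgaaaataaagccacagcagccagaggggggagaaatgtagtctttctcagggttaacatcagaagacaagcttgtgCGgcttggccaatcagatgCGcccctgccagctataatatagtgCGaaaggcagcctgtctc
Ihh: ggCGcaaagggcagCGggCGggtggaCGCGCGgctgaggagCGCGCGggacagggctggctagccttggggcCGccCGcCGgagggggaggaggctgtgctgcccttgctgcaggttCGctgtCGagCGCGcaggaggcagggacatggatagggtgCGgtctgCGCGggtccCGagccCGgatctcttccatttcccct
Hhip: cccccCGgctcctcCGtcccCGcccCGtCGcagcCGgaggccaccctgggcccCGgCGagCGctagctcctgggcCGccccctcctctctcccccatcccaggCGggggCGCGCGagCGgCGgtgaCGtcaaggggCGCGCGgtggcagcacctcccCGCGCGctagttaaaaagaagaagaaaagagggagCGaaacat
The *Shh* stretch holds 3 CG dinucleotides, that of *Ihh* 21 and that of *Hhip* 24. The same stretch holds 8 for *Dhh*, 11 for *Ptch1*, 19 for *Smo*, 11 for *Gli1*, 20 for *Gli2* and 24 for *Gli3*, where the median over 22362 protein-coding genes is 7 and 90.4% hold at least 1. The GC box GGGCGG, searched on both strands, was present upstream of the gene start of *Ihh*, *Dhh*, *Smo*, *Gli2* and *Hhip*, and in 38.0% of all such stretches. These counts do not cover the SUZ12-bound sequence as a whole. At *Shh* the WT SUZ12 peak is 5544 bp long and reaches 5036 bp downstream of the gene start, where CG was not counted.

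In *Ezh2* KO cells SUZ12 peaks were fewer while H3K27me3 peaks were listed at the same 5 genes. SUZ12 lay at 4 of the 9, *Shh*, *Ihh*, *Dhh* and *Ptch1*, beside 4.22% of all genes, and H3K27me3 at 5, beside 14.8%. The H3K27me3 share of the window was 70.1% for *Shh*, 74.4% for *Ihh* and 53.4% for *Dhh*. The SUZ12 share was 32.3%, 25.6% and 10.2% for these genes, against 55.1%, 48.9% and 48.1% in WT. *Dhh* had a 1954-bp SUZ12 peak across its TSS in WT that was not listed in *Ezh2* KO, where its only peak was 1017 bp long and lay 3529 bp downstream. *Smo* had a 1989-bp H3K27me3 peak across its TSS and no SUZ12 peak. For *Ezh2* KO the strongest H3K27me3 peak per gene had a −log10 p between 79.6 (*Smo*) and 496 (*Ihh*). The WT list was weaker at all 5 genes, from 14.1 (*Smo*) to 31.5 (*Ihh*). By western blot the study saw a global loss of H3K27me3 in *Ezh2* KO cells. Its ChIP-seq, scaled to added Drosophila chromatin, still found the mark at most of the sites that carried it in WT. Peak widths depend on the depth of each library, which is unknown here. Similar window shares therefore do not show that the amount of H3K27me3 was kept.

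In *Ezh1/2* dKO cells H3K27me3 peaks lay at 0 of the 9 genes, beside 0.103% of all genes, and SUZ12 at *Ihh* alone (1 of 9, beside 1.03%). That peak spans 308 bp at chr1:74997671-74997978, lies wholly in exon sequence of *Ihh*, 247 bp from the nearest TSS, and has 232 bases in coding sequence. Its −log10 p was 10.8, near the threshold of 10, against 106 for the 4902-bp WT peak that spans the same place. The stretch holds 33 CG dinucleotides and is 76.3% G and C.

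The lines with a mutated EZH2 differed from the *Ezh1/2* dKO in SUZ12 and from each other in H3K27me3. In *Ezh2* Y726D cells SUZ12 peaks lay at 5 of the 9 genes, *Shh*, *Ihh*, *Dhh*, *Ptch1* and *Smo*, beside 10.3% of all genes. H3K27me3 peaks lay at 0, beside 1.35%. The SUZ12 peaks at *Dhh* lay 2264 and 3470 bp downstream of its TSS. Their −log10 p was 10.7 and 12.4, near the threshold of 10, and *Dhh* was lost with a window of 1 kb. In *Ezh2* R685C cells SUZ12 lay at the 3 ligands and *Ptch1* (4 of 9, beside 8.44%) and H3K27me3 at 7 of the 9 (beside 24.6%). These 7 were the 5 of WT with *Gli1* and *Hhip*, which held 1 peak each, of 755 bp with a −log10 p of 15.1 and of 770 bp with a −log10 p of 15.7. At a p of at most 1e-20 both were lost and 5 genes remained.

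**Figure D1:**
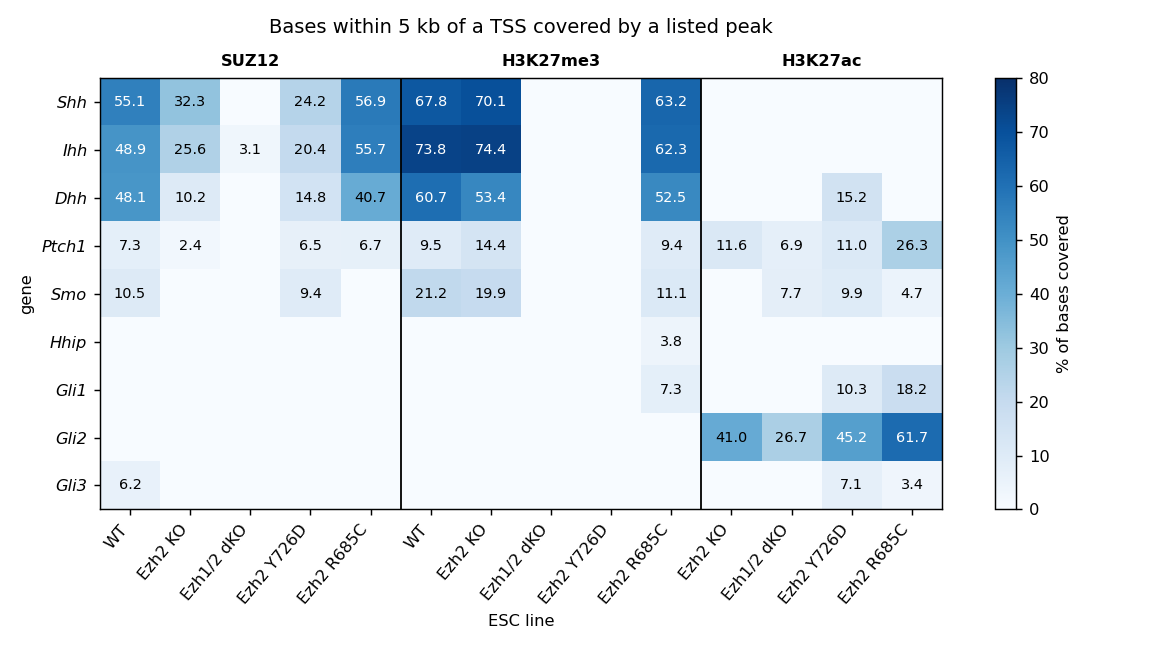
The colour and number in each cell give the percentage of bases within 5 kb of an annotated TSS covered by listed peaks, for 9 genes in the SUZ12, H3K27me3 and H3K27ac lists of each ESC line (1 library each). Genes with TSSs far apart, such as *Ptch1*, have longer windows, which lowers their percentages. The 3 ligands hold the widest SUZ12 and H3K27me3 stretches in WT, and H3K27me3 is at 0 for every gene in *Ezh1/2* dKO and *Ezh2* Y726D.

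H3K27ac, the acetylation of the same residue found at active promoters and enhancers, was listed at *Ptch1* and *Gli2* in all 4 mutants. The counts over the 9 genes were not far from the shares over all genes. Its peaks lay at 2 of the 9 genes in *Ezh2* KO (*Ptch1* and *Gli2*, beside 37.9% of all genes) and at 3 in *Ezh1/2* dKO (with *Smo*, beside 28.7%). They lay at 6 in *Ezh2* Y726D (*Dhh*, *Ptch1*, *Smo*, *Gli1*, *Gli2* and *Gli3*, beside 47.1%) and at 5 in *Ezh2* R685C (the same without *Dhh*, beside 46.0%). A WT list was not analysed here, so no difference from WT can be given. *Gli2* had the widest acetylation, over 26.7% to 61.7% of its window in the 4 mutants, and no SUZ12 or H3K27me3 peak in any line. *Shh*, *Ihh* and *Hhip* had no H3K27ac peak in any of the 4. *Dhh* was acetylated in *Ezh2* Y726D at 2 places, 673 and 844 bp wide, both over 2 kb downstream of its TSS and inside the WT SUZ12 peak of 2860 bp. *Smo* held a peak downstream of its TSS in *Ezh1/2* dKO, *Ezh2* Y726D and *Ezh2* R685C, of 774, 988 and 475 bp.

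*Ptch1* has 4 annotated TSSs, and SUZ12 and acetylation sat mostly at different ones. SUZ12 covered the most upstream TSS, the gene start, in WT, *Ezh2* KO, *Ezh2* Y726D and *Ezh2* R685C, with a peak of 2093 bp in WT and of 705 bp in *Ezh2* KO. The widest H3K27ac peak lay instead by the TSSs 7646 and 8840 bp downstream in all 4 lines with a list, and was 3761 bp long in *Ezh2* R685C. In *Ezh2* Y726D a 375-bp H3K27ac peak also lay across the gene start and a 732-bp SUZ12 peak between the downstream TSSs. Further H3K27ac peaks lay by the TSS 58849 bp downstream, 2 in *Ezh2* KO and 4 in *Ezh2* R685C. To show how these promoters differ, the 200 bases upstream of the gene start (chr13:63674475-63674674) and of the TSS 7646 bp downstream (chr13:63666829-63667028) are given from mm9, minus strand, with CG in capitals.
Ptch1 gene start: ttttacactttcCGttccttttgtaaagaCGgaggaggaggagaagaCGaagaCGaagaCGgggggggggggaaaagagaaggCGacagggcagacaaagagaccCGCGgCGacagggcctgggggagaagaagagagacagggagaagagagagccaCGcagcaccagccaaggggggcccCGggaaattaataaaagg
Ptch1 downstream TSS: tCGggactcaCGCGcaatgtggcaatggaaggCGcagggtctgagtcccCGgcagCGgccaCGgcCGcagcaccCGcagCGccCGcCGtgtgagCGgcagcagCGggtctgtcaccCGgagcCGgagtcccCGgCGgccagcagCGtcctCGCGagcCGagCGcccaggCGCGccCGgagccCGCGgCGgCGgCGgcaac
The upstream stretch holds 11 CG dinucleotides and the downstream one 31, more than in 97.4% of protein-coding gene starts.

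GLI proteins bind sequences close to GACCACCCA, and an exact match on either strand lay within 5 kb of the gene start of 7.94% of all protein-coding genes. Of the 9 genes *Ptch1* alone had one, at 2 places, with the first base 307 bp upstream and 3873 bp downstream of its gene start. These are given with 20 bases on each side because *Ptch1* is a standard target of GLI, with the match in capitals, at chr13:63674753-63674801 and chr13:63670573-63670621 on the minus strand.
Ptch1 upstream match: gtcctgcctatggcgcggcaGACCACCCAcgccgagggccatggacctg
Ptch1 downstream match: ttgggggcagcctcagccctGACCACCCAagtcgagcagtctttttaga
The first lies inside the WT SUZ12 peak at chr13:63673147-63675239. A match describes the letters, and binding of GLI proteins was not measured.

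**Figure D2:**
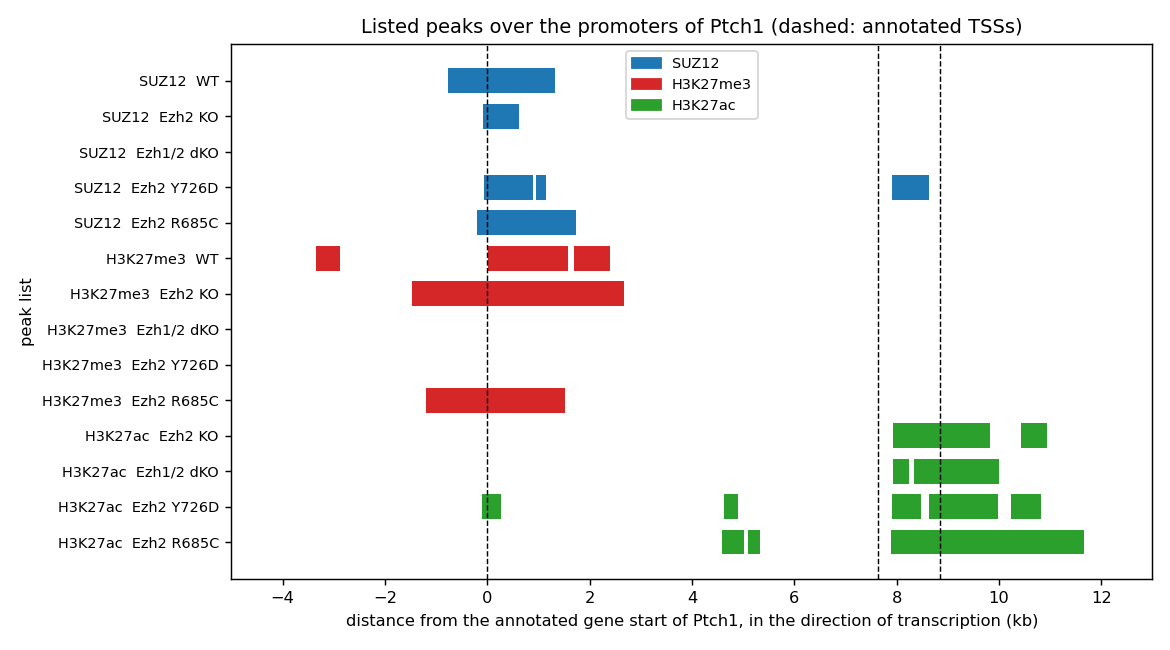
Each bar is a listed peak, drawn by its distance in kb from the annotated gene start of *Ptch1* in the direction of transcription, by target and ESC line (1 library each), and peaks by the TSS 58849 bp downstream are beyond the axis. SUZ12 and H3K27me3 lie around the gene start, except for a 732-bp SUZ12 peak between the downstream TSSs in *Ezh2* Y726D. The widest H3K27ac peak of each line lies near the TSSs 7646 and 8840 bp downstream, with smaller H3K27ac peaks elsewhere in *Ezh2* Y726D and *Ezh2* R685C.

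HA-tagged EZH1 lay at the ligand genes as well. In the transfected *Ezh1/2* dKO 6 of the 9 genes, *Shh*, *Ihh*, *Dhh*, *Ptch1*, *Gli1* and *Gli2*, had an HA peak within 5 kb of a TSS (beside 11.0% of all genes), and in the untransfected control 0 had one (beside 2.90%). The HA peaks covered 44.7% of the window of *Shh*, 41.7% of that of *Ihh* and 25.1% of that of *Dhh*. At *Gli1* and *Gli2* they were 235 and 304 bp long, and the one at *Gli1* lay 2206 bp from the nearest TSS. The HA lists give no p, so these counts had no p limit, unlike those of SUZ12.

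Listed regions of H3K27me2, the dimethyl state, covered more of the ligand gene bodies in *Ezh2* KO than in WT. They covered less of the bodies of the other 5 members compared. Methylation and background cannot be told apart in these regions, as given below. H3K27me2 regions covered 100% of the gene bodies of *Shh*, *Ihh* and *Dhh* in *Ezh2* KO and 0% of each in WT. Of the 8 genes on chromosomes present in all 4 lists, the other 5 had 25.3% to 59.4% of the body covered in WT and 0% to 24% in *Ezh2* KO, each lower than in WT. The median over all protein-coding genes on these chromosomes was 9.05% in WT and 0% in *Ezh2* KO, so the fall at these 5 had the direction of the median. The share of all genes with more or less coverage in *Ezh2* KO was not counted, for bodies or around the TSS. The body of *Gli2* stood at 49.7% in WT and 0% in *Ezh2* KO, against 36.1% in *Ezh2* Y726D and 32.5% in *Ezh1/2* dKO. Around the TSS H3K27me2 regions covered more bases in *Ezh2* KO than in WT at 6 of the 8 genes. *Shh* and *Ihh* stood at 0% in WT and 100% in *Ezh2* KO, *Dhh* at 21.2% and 71.3%, *Smo* at 1.40% and 77.2%, *Gli3* at 20.8% and 48.1% and *Ptch1* at 11.3% and 30.6%. *Gli1* stood at 14.4% and 13.5% and *Gli2* at 35.8% and 0%, where the median of all genes was 12.6% in WT and 2.0% in *Ezh2* KO.

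H3K27me1, the monomethyl state, could be compared for *Shh*, *Ihh* and *Gli2* only, on the 9 chromosomes present in all 4 lists. It covered 91.9% of the body of *Gli2* in WT and 0.888% in *Ezh2* KO, against 42.2% in *Ezh2* Y726D and 27.4% in *Ezh1/2* dKO. The body of *Ihh* stood at 0% in WT, 50.2% in *Ezh2* KO, 33.0% in *Ezh2* Y726D and 52.4% in *Ezh1/2* dKO. That of *Shh* stood at 0% in WT and *Ezh2* KO, 75.8% in *Ezh2* Y726D and 18.1% in *Ezh1/2* dKO. The median body over all genes stood at 7.26% in WT, 0% in *Ezh2* KO, 12.7% in *Ezh2* Y726D and 6.78% in *Ezh1/2* dKO. By western blot the study saw H3K27me1 lost in *Ezh2* Y726D and *Ezh1/2* dKO cells. The H3K27me1, H3K27me2 and ATAC-seq lists go down to a −log10 p of 1.00 or 1.01. On the shared chromosomes H3K27me2 regions held 622 and 609.99 Mb in *Ezh1/2* dKO and *Ezh2* Y726D, against 356 Mb in WT and 405 Mb in *Ezh2* KO. Methylation and background cannot be told apart in the H3K27me1 or the H3K27me2 regions. ATAC-seq regions, which mark open chromatin, covered 35.2% to 54.2% of the windows of the 9 genes in WT (median of all genes 36.6%), 35.5% to 50.8% in *Ezh2* Y726D (36.6%) and 38.0% to 55.1% in *Ezh1/2* dKO (37.5%). In *Ezh2* KO they covered 32.1% to 69.2% (33.2%), with the highest share at *Shh*, which stood at 39.0% in WT. The ranges of the 4 lines overlap. ATAC-seq regions held from 604 Mb in *Ezh2* Y726D to 645 Mb in *Ezh1/2* dKO. Open chromatin and background cannot be told apart in them, so these shares do not show that a promoter was open.

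**Figure D3:**
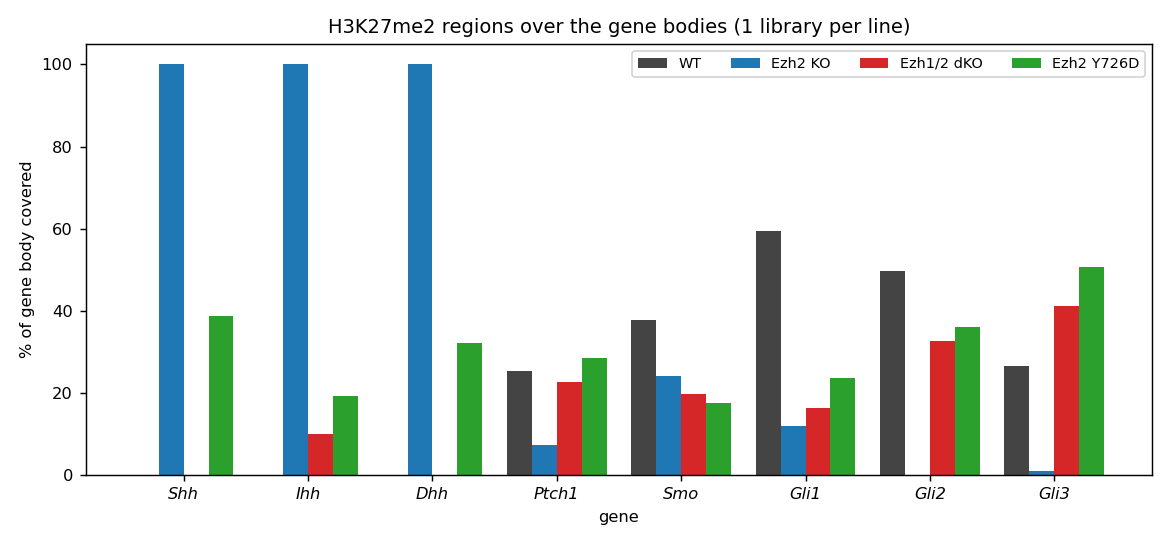
Bars give the percentage of each gene body covered by deposited H3K27me2 regions in 4 ESC lines, 1 library each, for the 8 genes on chromosomes present in every list. *Shh*, *Ihh* and *Dhh* are at 100% in *Ezh2* KO and at 0% in WT, and the other 5 genes lie lower in *Ezh2* KO than in WT. Methylation and background cannot be told apart in these regions.

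At the level of RNA the ligands were silent or nearly so. *Shh*, the ligand of the notochord and limb, had 0 reads in the WT, *Ezh2* KO and *Ezh2* Y726D libraries and 1 read in each *Ezh1/2* dKO library. *Ihh*, the ligand of cartilage and gut, had normalized counts of 1.33 and 4.81 in WT, 3.14 and 5.81 in *Ezh2* KO, 0 and 2.66 in *Ezh1/2* dKO and 0 in both *Ezh2* Y726D libraries, or 6, 9, 3 and 0 reads per line. Neither gene can be ordered between lines at this depth, where 0 reads allow a level of up to 3 reads in a library. *Shh* is also overlapped on the other strand by the non-coding genes *9530036O11Rik* and *Gm17493*, whose reads cannot be told apart from its own.

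*Dhh*, the ligand of testis and peripheral nerve, was highest without both enzymes. Its normalized counts were 8.0 and 1.93 in WT, 0 and 2.90 in *Ezh2* KO, 5.35 and 14.5 in *Ezh2* Y726D and 28.8 and 23.1 in *Ezh1/2* dKO. Both *Ezh1/2* dKO libraries were above every other library, and WT overlapped *Ezh2* KO and *Ezh2* Y726D. *Dhh* rose in *Ezh1/2* dKO against *Ezh2* KO, with a log2 fold change of 3.76 ± 0.85 (SE, 2 libraries per line) and an adjusted p of 0.0608 (limma). It was the 1 of the 7 tested genes called there, where 3.58% of all tested genes passed the same limits, an adjusted p under 0.1 with a log2 fold change of 1 or more in either direction. The reads were 61 against 3, a ratio per library depth of 17.9 with an exact 95% counting interval of 5.84 to 89.2. Against WT the log2 fold change was 2.39 ± 0.85 with an adjusted p of 0.181 (limma), not called. The call against *Ezh2* KO was lost without *Ezh2* KO replicate 1 (adjusted p of 0.351), without *Ezh1/2* dKO replicate 1 (0.387) or 2 (0.355) and under quantile normalization (0.212).

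No difference was called for the receptor genes. *Ptch1*, measured over all its promoters together, had normalized counts of 223 and 260.0 in WT, 276 and 289 in *Ezh2* KO, 225 and 129 in *Ezh2* Y726D and 215 and 153 in *Ezh1/2* dKO. The *Ezh2* KO libraries were above all others. The difference with an unadjusted p under 0.05 was that of *Ezh1/2* dKO against *Ezh2* KO, with a log2 fold change of −0.64 ± 0.28 and an adjusted p of 0.367 (limma).

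*Smo* had normalized counts of 62.7 and 71.2 in WT, 46.0 and 39.7 in *Ezh2* KO, 70.4 and 49.2 in *Ezh2* Y726D and 81.6 and 80.8 in *Ezh1/2* dKO. The *Ezh1/2* dKO libraries were highest and the *Ezh2* KO libraries lowest, without overlap with any other line. The difference between them was 0.91 ± 0.31 on the log2 scale with an adjusted p of 0.205 (limma), not called. The pseudogene *Gm13717* overlaps *Smo* by 365 bp.

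*Hhip*, which encodes a membrane protein that binds and sequesters ligand, had no SUZ12 peak in any line and different levels in *Ezh1/2* dKO and *Ezh2* Y726D. Its normalized counts were 117 and 158 in WT, 326 and 270.0 in *Ezh2* KO, 136 and 45.9 in *Ezh2* Y726D and 349 and 317 in *Ezh1/2* dKO. Both KO lines lay above WT and *Ezh2* Y726D in every library, and WT and *Ezh2* Y726D overlapped. *Hhip* fell by 2.05 on the log2 scale in *Ezh2* Y726D against *Ezh1/2* dKO, a 4.16-fold lower level, with an SE of 0.42 and an adjusted p of 0.0663 (limma). It was the 1 of the 7 genes called there, beside 1.68% of all tested genes. Without *Ezh2* Y726D replicate 1 the log2 fold change was −2.83 (adjusted p of 0.000644), and without its replicate 2 it was −1.28 (0.0841). The call was lost without *Ezh2* KO replicate 1 or 2 (adjusted p of 0.127 for each) and without *Ezh1/2* dKO replicate 1 (0.369) or 2 (0.426).

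Against WT the log2 fold change of *Hhip* was 1.12 ± 0.42 in *Ezh2* KO (adjusted p of 0.459) and 1.28 ± 0.42 in *Ezh1/2* dKO (adjusted p of 0.149), neither called by limma. DESeq2 called the second on the recovered reads (log2 fold change of 1.27, adjusted p of 0.0218) and edgeR did not (adjusted p of 0.130). Without *Ezh2* Y726D replicate 1 or 2, limma called both, at adjusted p of 0.0883 and 0.0766 in *Ezh2* KO and 0.0217 and 0.0194 in *Ezh1/2* dKO. Without *Ezh2* Y726D replicate 1 *Hhip* was also called lower in *Ezh2* Y726D than in WT, with a log2 fold change of −1.55 and an adjusted p of 0.0206.

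**Figure D4:**
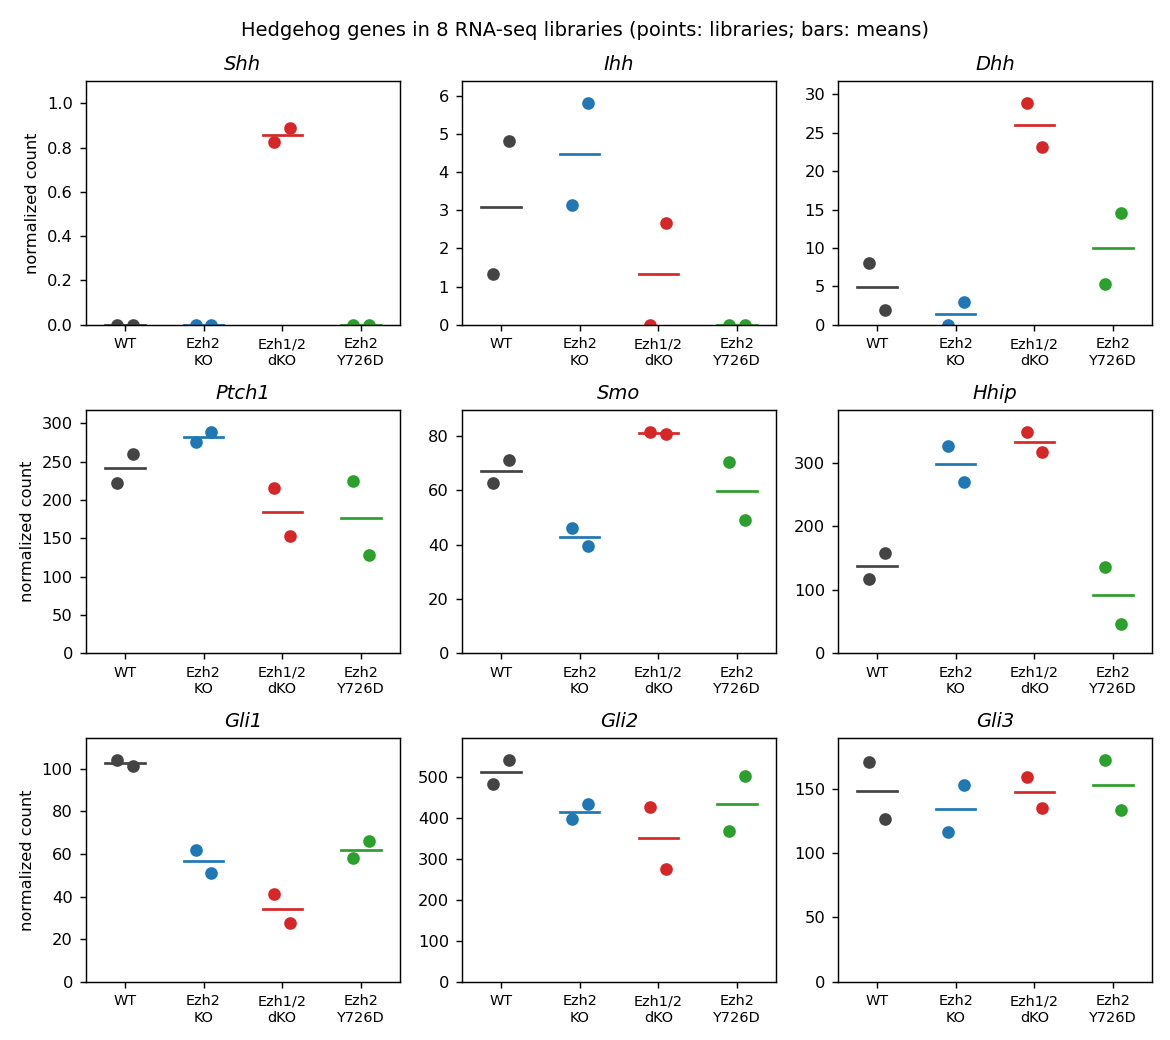
Points are the normalized counts of each library and bars the mean of the 2 libraries of a line, with 1 panel per gene and each axis starting at 0. *Gli1* is lower in all 6 mutant libraries than in WT, *Hhip* is higher in both KO lines and *Dhh* is highest in *Ezh1/2* dKO.

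*Gli1*, the GLI factor whose transcription follows active signalling, had lower values in every mutant library than in WT. Its normalized counts were 104 and 101 in WT, 61.7 and 51.3 in *Ezh2* KO, 58.0 and 66.0 in *Ezh2* Y726D and 41.2 and 27.5 in *Ezh1/2* dKO. The *Ezh1/2* dKO libraries lay below all others, and *Ezh2* KO and *Ezh2* Y726D overlapped. In *Ezh1/2* dKO *Gli1* fell by 1.58 on the log2 scale against WT (SE of 0.32, a 2.98-fold lower level, adjusted p of 0.0391, limma). It was the 1 of the 7 genes called, beside 4.02% of all tested genes. It was also called by edgeR (adjusted p of 0.0439) and DESeq2 (0.0117), but not by limma without *Ezh1/2* dKO replicate 1 (0.171) or replicate 2 (0.328).

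In the other lines the log2 fold change of *Gli1* against WT was −0.86 ± 0.32 in *Ezh2* KO (adjusted p of 0.453) and −0.72 ± 0.32 in *Ezh2* Y726D (0.343), neither called by limma. The difference between *Ezh1/2* dKO and *Ezh2* KO was −0.72 ± 0.32 (adjusted p of 0.364) and that between *Ezh2* Y726D and *Ezh1/2* dKO was 0.86 ± 0.32 (0.294), so an order among the mutants was not shown. *Gli1* had no SUZ12 peak in any line. It overlaps *Arhgap9* on the other strand by 55 bp. The other standard readouts did not follow *Gli1*. *Hhip* lay above WT in every library of both KO lines, though not called by limma, and *Ptch1* had no called difference. Activity of the pathway was not tested.

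*Gli2*, the main activator of the pathway, had normalized counts of 482 and 540.1 in WT, 396 and 433 in *Ezh2* KO, 366 and 502 in *Ezh2* Y726D and 427 and 275 in *Ezh1/2* dKO. WT was above both KO lines without overlap and overlapped *Ezh2* Y726D. The log2 fold change in *Ezh1/2* dKO against WT was −0.57 ± 0.23, with an adjusted p of 0.230 (limma), not called. *Gli3*, which acts mostly as a repressor, had 171 and 126 in WT, 116 and 153 in *Ezh2* KO, 172 and 133 in *Ezh2* Y726D and 159 and 135 in *Ezh1/2* dKO, and all 4 lines overlapped. Its WT SUZ12 peak, 664 bp with a −log10 p of 12.4, was listed in none of the 4 mutants.

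**Figure D5:**
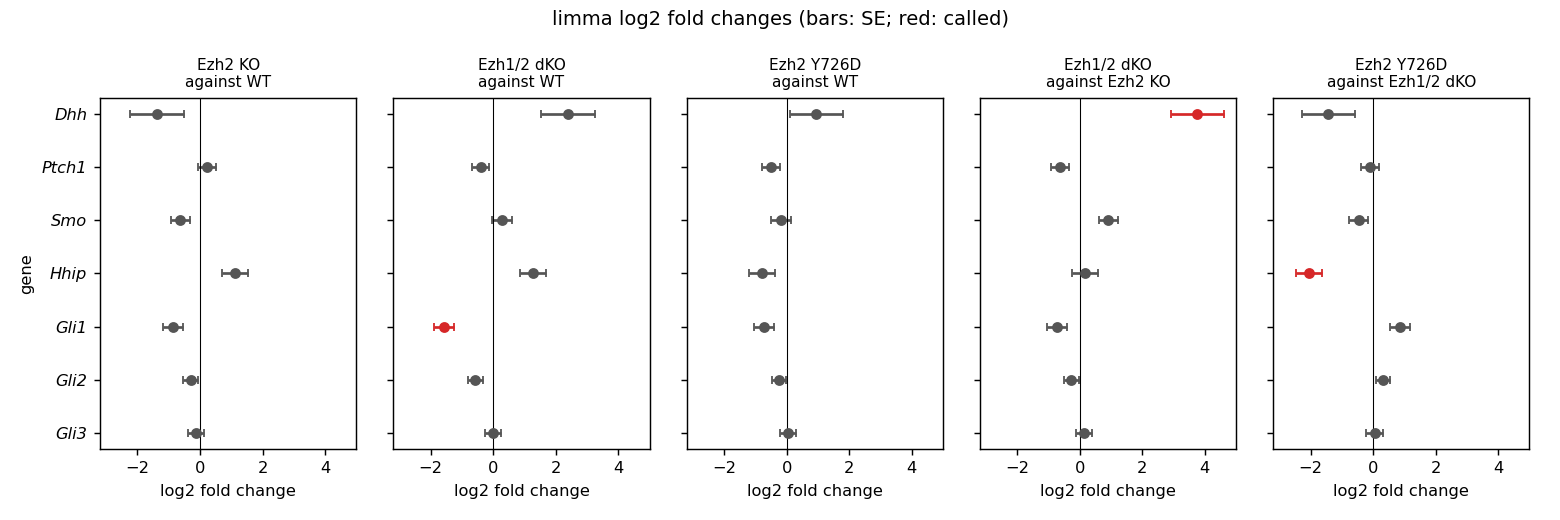
Points give the limma log2 fold change of the 7 tested genes in 5 comparisons and bars its standard error, with called genes marked. The 3 calls are *Gli1* in *Ezh1/2* dKO against WT, *Dhh* in *Ezh1/2* dKO against *Ezh2* KO and *Hhip* in *Ezh2* Y726D against *Ezh1/2* dKO.

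None of the 7 genes was called in *Ezh2* KO against WT (0, beside 0.404% of all tested genes) by limma, edgeR or DESeq2, and 2 had an unadjusted p under 0.05 by limma. None was called in *Ezh2* Y726D against WT (0, beside 2.72%) by these tools, with 1 at an unadjusted p under 0.05. The median log2 fold change of the 7 was −0.30 in *Ezh2* KO and −0.25 in *Ezh2* Y726D against WT, where that of all tested genes was −0.01 in both. The comparisons with WT share the same 2 WT libraries.

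Other genes of the pathway were not called against WT. Of 37 listed names for co-receptors, ligand-releasing proteins, cilium proteins and GLI regulators, 35 were in the table and 33 were tested. None was called in *Ezh2* KO, in *Ezh1/2* dKO or in *Ezh2* Y726D against WT by limma, edgeR or DESeq2, and 6, 3 and 2 had an unadjusted p under 0.05 by limma, beside 1225, 2582 and 1980 of all 13872 tested genes.

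The co-receptor *Gas1* had normalized counts of 16.0 and 16.4 in WT, 1.05 and 1.94 in *Ezh2* KO, 9.81 and 0 in *Ezh2* Y726D and 10.7 and 11.5 in *Ezh1/2* dKO. The co-receptor *Boc* had 26.7 and 60.7 in WT, 20.9 and 15.5 in *Ezh2* KO, 19.6 and 19.0 in *Ezh2* Y726D and 34.6 and 57.7 in *Ezh1/2* dKO. Both had SUZ12 and H3K27me3 peaks in WT, and *Gas1* was the 1 pathway gene outside the 9 with a SUZ12 peak in *Ezh2* KO and in *Ezh1/2* dKO. *Cdon*, the third co-receptor, had 49.4 and 67.4 in WT and 54.4 to 86.1 in the mutants. *Sufu*, which holds GLI proteins in the cytoplasm, had 244 to 370.3 and *Kif7*, a kinesin of the cilium, 8.71 to 32.7 over all 8 libraries. Of the 35 genes SUZ12 peaks lay at 11 in WT (beside 14.4% of all protein-coding genes), 9 in *Ezh2* Y726D (10.3%), 4 in *Ezh2* R685C (8.44%), 1 in *Ezh2* KO (4.22%) and 1 in *Ezh1/2* dKO (1.03%), and the last 3 counts are near those shares.

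The genes whose log2 levels followed the members most closely were named by Pearson's r over the 8 libraries, as a description of points that share 4 lines. For *Dhh* they were *Ehd3* (r = 0.989) and *Apln* (0.985), for *Ptch1* *Cds2* (0.974) and *1700095A21Rik* (0.969) and for *Smo* *Adam22* (0.987) and *Kif21a* (0.970). For *Hhip* they were *Ralgapa1* (0.977) and *2900055J20Rik* (0.976), for *Gli1* *Dusp27* (0.978) and *Dcp1a* (0.968), for *Gli2* *Csrp2bp* (0.966) and *4930507D05Rik* (0.936) and for *Gli3* *Gabpb1* (0.956) and *Ogn* (0.916). No member was among the 2 closest genes of another.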

How the data were processed

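RNA was measured by poly(A) RNA-seq, chromatin by ChIP-seq and accessibility by ATAC-seq. Per the labels and the study's methods, the authors aligned to mm9, counted reads per gene without using strand and divided the counts by size factors, so the deposited signal is a normalized count. Within 0.01, 100% of its values were whole multiples of the value of 1 read, so reads could be recovered. The authors aligned ChIP-seq reads with Bowtie and called peaks per library with MACS2, and the deposited lists give a −log10 p per peak, except the HA lists, which hold positions only. The deposited tables of the authors' own fold changes and p-values against WT were not used. H3K27me1 and H3K27me2 lists were compared only on chromosomes present in all 4 lists.

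limma 3.58.1 (R 4.3.3) with a trend was fitted to log2(normalized count + 1) of all 8 libraries for 13872 genes with a mean of at least 5. p-values were adjusted over all of them by Benjamini-Hochberg, and calls needed an adjusted p under 0.1 with a log2 fold change of 1 or more in either direction. Fold changes on this scale understate the change of low genes. The labels do not say that libraries came from separate cultures, so p-values measure only the spread between these samples. edgeR 4.0.16 and DESeq2 1.42.0 on recovered reads, other pseudocounts, filters and scalings, fits of only the 2 lines compared, a replicate block and leaving out each library were alternatives, as were other windows, p thresholds, overlaps and TSS choices for peaks. A gene had a peak when a peak with a p of at most 1e-10 overlapped 5 kb on either side of any annotated GENCODE TSS, over 22367 protein-coding genes. In the HA lists, which give no p, every peak was used. Intervals and floors cover counting error only. The scripts were tested on simulated data.

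All 9 members were named, with fold changes where called or at an unadjusted p under 0.05. Of the other pathway genes those called and *Cdon*, *Boc*, *Gas1*, *Sufu* and *Kif7* were named, with 1 further gene not reported here, and for each member the 2 genes with the highest r. The members and lists were chosen with earlier results of these data known.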

Additional observations from a re-analysis of the deposited data

Results flagged for a closer look

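A pair of genes was picked out because mutant lines differed in a direct test of those lines. *Dhh* was higher in *Ezh1/2* dKO than in *Ezh2* KO by 3.76 on the log2 scale, in 2 of 2 libraries, with an adjusted p of 0.0608 (limma). *Hhip* was lower in *Ezh2* Y726D than in *Ezh1/2* dKO, with a log2 fold change of −2.05, in 2 of 2 libraries, and an adjusted p of 0.0663 (limma). Each call was lost when single libraries were left out, as given above.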

How the results depend on the processing

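Of the recomputed counts of called genes or of promoters with a peak, 203 were within 1.5 times the reported count and 30 were not. Of the recomputed fold changes of members called or at an unadjusted p under 0.05, 213 kept their direction and side of the threshold, 7 became called, 12 were no longer called and 0 reversed. Why the others differed was not tested, except where given. In *Ezh1/2* dKO against WT the 1 called member became 2 with a pseudocount of 5 (*Dhh* added) and with DESeq2 or only the 2 lines compared (*Hhip* added). In *Ezh1/2* dKO against *Ezh2* KO it became 0 with quantile normalization and with a mean of at least 20, which removes *Dhh* from the test. In *Ezh2* Y726D against *Ezh1/2* dKO it became 0 without a filter and with only the 2 lines compared. Leaving out 1 library at a time gave 0 to 2 members for *Ezh1/2* dKO against WT and 0 to 1 in each of the other 4 comparisons. The lone library of a line was then assumed to vary like the other lines. The pathway list gave 0 to 1 in *Ezh2* KO and in *Ezh2* Y726D against WT, the 1 being *Gas1* (without *Ezh2* Y726D replicate 2 and 1), and 0 in *Ezh1/2* dKO.

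With the replicate block the called members were 0, 1, 0, 1 and 1 over the comparisons of *Ezh2* KO with WT, *Ezh1/2* dKO with WT, *Ezh2* Y726D with WT, *Ezh1/2* dKO with *Ezh2* KO and *Ezh2* Y726D with *Ezh1/2* dKO, as without it. The replicate differences of the lines correlated between −0.41 and 0.29, so the numbers were not taken as pairs. Over all genes the calls in these comparisons were 56, 557, 377, 496 and 233, and the block gave 34, 514, 330, 412 and 162. Other alternatives ranged over 28 to 144, 408 to 689, 32 to 479, 176 to 1181 and 150 to 328 genes, and leaving out a library over 6 to 135, 3 to 733, 156 to 546, 53 to 665 and 14 to 514.

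SUZ12 in *Ezh1/2* dKO lay at 2 members with a window of 10 kb and at 0 with a p of at most 1e-20. At that p SUZ12 in *Ezh2* Y726D lay at 3, H3K27me3 in WT at 3, and H3K27ac at 3 in *Ezh2* Y726D and 2 in *Ezh2* R685C. With 1 TSS per gene H3K27ac lay at 1 in *Ezh2* KO and at 2 in *Ezh1/2* dKO, and *Ptch1* was lost in both. HA-tagged EZH1 lay at 4 to 6 members under alternatives chosen after seeing the data.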

Other observations

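Of 20 listed targets of the pathway in other tissues 15 were in the table and 7 were tested. *Ccnd2*, which encodes the cell cycle regulator cyclin D2, had normalized counts of 141 and 36.6 in WT, 51.2 and 28.1 in *Ezh2* KO, 523 and 504 in *Ezh1/2* dKO and 285 and 182 in *Ezh2* Y726D. It rose in *Ezh1/2* dKO against WT by 2.81 on the log2 scale (SE of 0.55, adjusted p of 0.0358, limma) and against *Ezh2* KO by 3.72 (adjusted p of 0.0113, limma), with both *Ezh1/2* dKO libraries above every other. No other target was called in these or the other 3 comparisons by limma.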
